A study of Homo sapiens with 6 samples.

Results

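The set described here is 10 genes of the BCL2 family, the proteins that set whether mitochondria release cytochrome c and commit a cell to apoptosis: MCL1, BCL2L1, BAX, BAK1, BCL2L11, BID, BBC3, PMAIP1, BAD and BIK. Members were the rows of the deposited read count table that carry these symbols, and all 10 were found among 30493 listed genes. All 10 had enough counts to be tested, among 17089 genes in all. The cells were A549, a human lung adenocarcinoma line with epithelial features. The tested libraries, 3 in number, carry a knockdown of STAU1, the double-stranded RNA-binding protein Staufen, and their titles bear the prefix si. The references, also 3, are labelled as carrying a control plasmid under the title NC. The labels do not state the reagent of the knockdown, so a difference of reagent between groups cannot be told apart from the knockdown itself. Both groups are the same line with no other allele or agent named, and nothing in the labels ties replicates to separate cultures. The p-values below therefore reflect variation among these libraries only, which may be technical.

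BCL2 family proteins fall into 3 roles. Guardians such as MCL1 and BCL-xL, the main product of BCL2L1, hold the family's other proteins in check, the effectors BAX and BAK open the outer mitochondrial membrane, and the BH3-only proteins sense stress and either engage the effectors or occupy the guardians. Several of these genes are transcribed under p53 or FOXO factors, and BCL2L1, MCL1, BCL2L11 and BAX each give alternative transcripts whose proteins can differ in action. GENCODE 29 lists 25 transcripts of BCL2L11, 13 of BAX, 9 of BCL2L1 and 4 of MCL1, and a gene's count sums over them, so no isoform could be followed here.

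STAU1 itself had 16.02, 15.7 and 14.6 CPM (counts scaled to library size with TMM factors) in the knockdown libraries, against 120, 125 and 117 CPM in the controls (log2 fold change -2.97, SE 0.04). Its relative STAU2 had 41.3 ± 0.921 CPM in knockdown and 35.3 ± 0.567 CPM in control libraries (SD, n = 3 each) and rose by 0.23 on the log2 scale. Library totals ran from 30354219 to 35431441 counts, and mitochondrially encoded genes took 15.8% to 16.1% of the counts in knockdown libraries and 17.3% to 17.9% in controls. The epithelial markers fixed for A549 were abundant, with KRT18 at 3028 ± 53.1 CPM in knockdown and 4128 ± 63.0 CPM in control libraries (SD, n = 3 each). The whole list of 9 epithelial markers summed to 22080 to 22140 CPM in knockdown and 23290 to 23770 in control libraries, with 3 members higher and 5 lower. Alveolar type II markers were scarce, and the summed level of their list of 10 was 23.14 to 25.53 CPM in knockdown and 34.84 to 38.6 in control libraries, with SFTPA1 and SFTPB at 0 counts in every knockdown library. Of the 7 tested genes of that list 4 were lower, 0 higher and 3 not called. The lower ones were SFTPA1, SFTPB, SFTPA2 and SLC34A2, with log2 fold changes of -10.47, -9.17, -8.11 and -6.19. They ranked 1 to 4 from the bottom of all genes tested, below STAU1. Their means were 5.50, 2.24, 6.65 and 1.02 CPM in control libraries and 0, 0, 0.020 and 0.010 CPM in knockdown libraries. The most abundant gene of the list, ABCA3, was among the uncalled ones with 19.1 CPM in knockdown and 17.6 CPM in control libraries. Of 10 fibroblast and endothelial markers 9 were listed, and these summed to 24.41 to 25.7 CPM in knockdown and 11.42 to 12.05 in control libraries. The 5 immune markers listed of 8 summed to 18.21 to 21.08 CPM in knockdown and 14.05 to 15.78 in control libraries, most of it CD14. The part of these marker shifts in the results below was not tested, and in bulk RNA fewer cells of a type and less RNA per cell cannot be told apart.

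The BCL2 family moved in both directions. BBC3, BCL2L11, BAX and BCL2L1 rose in STAU1 knockdown libraries and BAK1, BAD and MCL1 fell, while PMAIP1, BID and BIK did not pass the test (quasi-likelihood test of edgeR, p-values adjusted by Benjamini-Hochberg over all genes tested, threshold 0.05). That is 7 of 10 members called, where 44.2% of all genes tested were called, with 22.2% higher and 22% lower. The changes of members ranged from a log2 fold change of -0.40 to 1.00, with a median of 0.02, beside a median of -0.000355 and a middle 50% between -0.17 and 0.18 over all genes tested. Groups did not overlap for 8 of the 10 members, with 4 members higher and 4 lower, against 51.4% of all genes, of which 25.8% were higher and 25.5% lower. Nothing is read from the members' count beyond this.

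**Figure D1:**
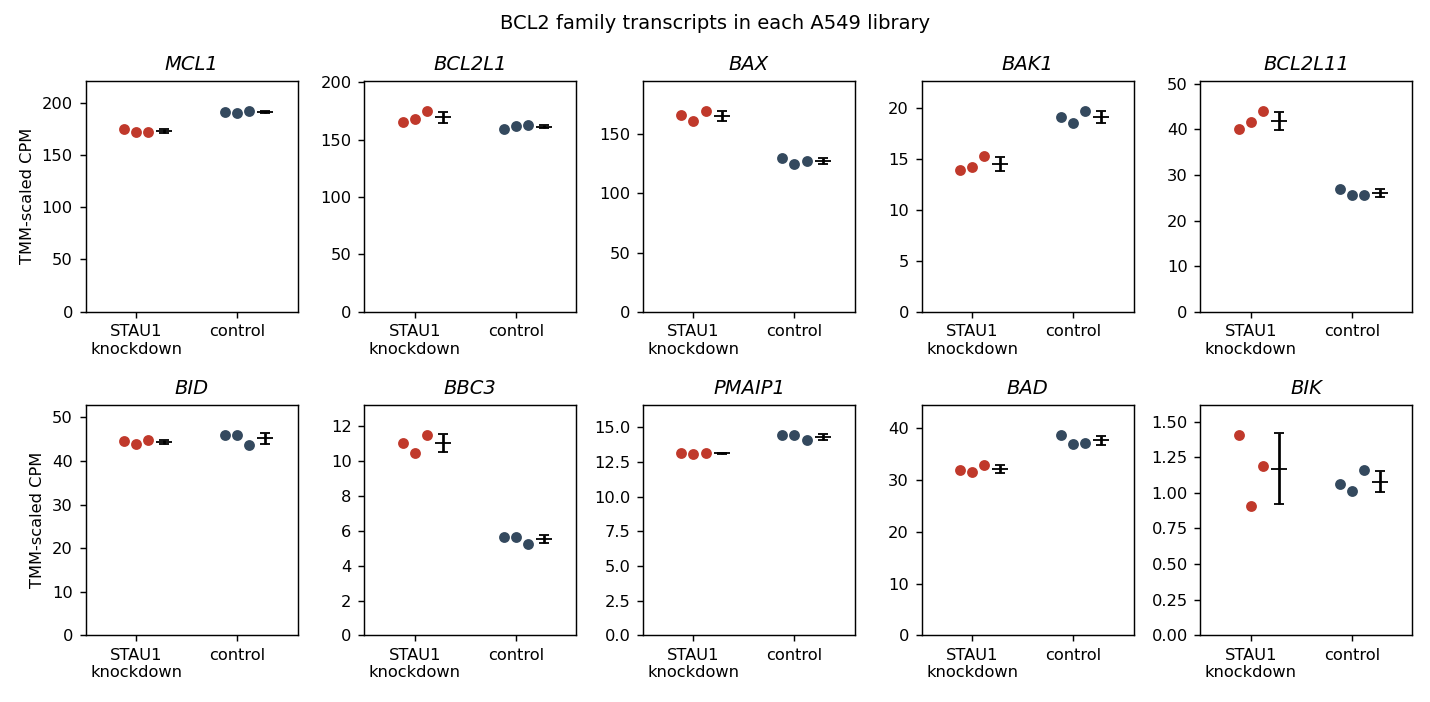
TMM-scaled CPM of each member in every library, with the y axis from 0, STAU1 knockdown libraries in red and control libraries in dark blue, and the mean ± SD of 3 libraries beside each group. BBC3 lies between 10.5 and 11.5 CPM in knockdown libraries and between 5.24 and 5.65 CPM in controls, and the groups of BID and BIK overlap.

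Among the BH3-only genes, BBC3, which encodes PUMA, a potent death inducer and p53 target, changed most. BBC3 (ENSG00000105327.18, chromosome 19, 47220822 to 47232766, minus strand, positions from GENCODE 29 on GRCh38 as for all members) had 11.1, 10.5 and 11.5 CPM in knockdown libraries and 5.64, 5.65 and 5.24 CPM in controls. Every knockdown library lay above every control. The log2 fold change was 1.00 (SE 0.09, adjusted p = 9.6e-14 from edgeR), which ranked 195 of 17089 from the top by log2 fold change. Genes called at least 2-fold higher made up 1.12% of those tested. These levels rest on raw counts of 346, 335 and 416 in knockdown and 175, 173 and 167 in control libraries.

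BCL2L11, which encodes BIM, a BH3-only protein that binds all guardians and can engage BAX directly, was the next largest. BCL2L11 (ENSG00000153094.24, chromosome 2, 111119378 to 111168447, plus strand) had 40.2, 41.5 and 44.03 CPM in knockdown libraries and 27.04, 25.6 and 25.6 CPM in controls, again with no overlap. Its log2 fold change was 0.69 (SE 0.05, adjusted p = 1.6e-17 from edgeR), a fold of 1.61. On the opposite strand the long noncoding RNA gene MIR4435-2HG overlaps BCL2L11 and fell by 0.29 on the log2 scale (SE 0.05). No source used here gives the strand setting of the counting, so reads of the pair may not be fully separated. The changes of both genes had opposite signs.

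The remaining BH3-only genes did not follow. BAD, a sensitizer that occupies BCL-xL and is silenced by survival kinases, fell: it had 32.04, 31.5 and 32.99 CPM in knockdown libraries and 38.8, 37.03 and 37.3 CPM in controls (log2 fold change -0.23, SE 0.04, adjusted p = 2.0e-05 from edgeR). The groups of BAD did not overlap, and its change shrank to -0.11 on the log2(FPKM + 1) scale and -0.12 on the log2(FPKM + 0.1) scale of limma-trend. BAD overlaps GPR137 on the opposite strand, which also fell, by 0.16 on the log2 scale (SE 0.05), so unseparated reads cannot be told apart from a change of BAD here.

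PMAIP1, which encodes NOXA, a BH3-only protein that binds chiefly MCL1, had 13.1, 13.1 and 13.1 CPM in knockdown libraries and 14.4, 14.4 and 14.07 CPM in controls. Its libraries did not overlap between groups, yet its log2 fold change of -0.13 (SE 0.06, 95% interval -0.26 to 0.0032) did not pass (adjusted p = 0.109 from edgeR). PMAIP1 and BBC3 are both known p53 targets, and the interval of PMAIP1 lay wholly below that of BBC3, which was 0.83 to 1.18. BID, the protein that caspase-8 cleaves to link death receptors to mitochondria, had 44.5, 43.9 and 44.7 CPM in knockdown libraries and 45.99, 45.9 and 43.7 CPM in controls, and the groups overlapped. The 95% interval of its log2 fold change was -0.10 to 0.05. BIK, a BH3-only protein of the endoplasmic reticulum, was near the floor with 44, 29 and 43 raw counts in knockdown and 33, 31 and 37 in control libraries, and its interval of -0.36 to 0.59 leaves changes of moderate size undetectable at this depth.

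For the genes with the largest changes in each direction and a lone RefSeq start, the promoter windows are printed below. They run from 250 bases before the RefSeq start to 50 after it, 5′ to 3′ on the gene's strand (RefSeq, GRCh38.p14). That start differs from the start of the GENCODE locus, and the BCL2L11 window lies wholly inside its locus. They let a reader see which short motifs the members that rose have or lack beside BAK1, which fell. The windows are chr19:47232618-47232917 on the minus strand for BBC3, chr2:111120664-111120963 on the plus strand for BCL2L11, chr19:48954625-48954924 on the plus strand for BAX and chr6:33580227-33580526 on the minus strand for BAK1. Capitals mark CACGTG (the E-box), GTAAACA (a FOXO site) and CCAAT, each on either strand, where CCAAT reads ATTGG on the other strand; no 2 of these motifs overlap.
BBC3: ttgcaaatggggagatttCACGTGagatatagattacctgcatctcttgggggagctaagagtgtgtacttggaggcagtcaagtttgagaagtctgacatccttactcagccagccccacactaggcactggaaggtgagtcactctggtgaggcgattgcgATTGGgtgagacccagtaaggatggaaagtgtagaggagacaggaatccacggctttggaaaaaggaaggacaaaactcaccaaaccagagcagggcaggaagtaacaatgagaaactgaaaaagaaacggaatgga
BCL2L11: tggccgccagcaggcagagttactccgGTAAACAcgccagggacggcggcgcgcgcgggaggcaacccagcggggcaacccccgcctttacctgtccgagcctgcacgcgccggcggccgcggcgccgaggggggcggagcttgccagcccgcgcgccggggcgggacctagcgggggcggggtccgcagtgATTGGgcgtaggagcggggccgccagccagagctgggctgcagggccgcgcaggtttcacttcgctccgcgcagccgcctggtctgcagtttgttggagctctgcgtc
BAX: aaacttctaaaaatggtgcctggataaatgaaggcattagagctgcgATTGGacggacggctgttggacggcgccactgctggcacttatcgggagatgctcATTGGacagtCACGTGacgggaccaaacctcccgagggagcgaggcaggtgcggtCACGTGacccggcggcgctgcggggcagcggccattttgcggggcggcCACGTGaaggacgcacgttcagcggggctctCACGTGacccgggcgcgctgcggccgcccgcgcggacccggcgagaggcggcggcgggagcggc
BAK1: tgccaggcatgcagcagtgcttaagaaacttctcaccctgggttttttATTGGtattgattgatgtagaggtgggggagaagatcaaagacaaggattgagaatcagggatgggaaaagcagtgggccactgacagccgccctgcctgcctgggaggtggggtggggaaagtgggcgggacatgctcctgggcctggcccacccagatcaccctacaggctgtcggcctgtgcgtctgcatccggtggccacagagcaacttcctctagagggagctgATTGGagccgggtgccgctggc
The BAX window holds 4 CACGTG hexamers, starting 138, 93, 45 and 14 bases before the RefSeq start. Of 35116 RefSeq promoter windows 7.26% hold at least 1, and 5 windows (0.0142%), that of BAX included, hold at least as many as BAX. That last share was worked out for this motif and gene alone, out of 8 motifs searched. It does not measure how rare such a match is over the whole search. BBC3 holds 1 CACGTG and BCL2L11 holds 1 GTAAACA, a heptamer present in 3.42% of windows. Among windows not printed, CACGTG was in some of those of BID, which was not called. It was in none of those of BCL2L1, which rose, BAD, which fell, or PMAIP1, which was not called. MCL1, which fell, and BIK, which was not called, had no window. How CACGTG relates to the direction of change was not tested. CCAAT, present in 34.6% of windows, occurs in every printed window, BAK1 included, and in those of BAD. It is in none of those of BCL2L1, BID or PMAIP1. Of 8 motifs searched, 1 form of paired p53 cores (a CATG followed after 6 bases by another CATG) was in none of the members' windows. That form is held by 0.373% of windows. Other letters or spacings of a p53 site were not searched, so no absence of p53 sites is read from this. TGATGNAA, a CHOP and ATF4 element, was also in none of the members' windows. GC content was 48% for BBC3, 74.7% for BCL2L11, 67.3% for BAX and 58.7% for BAK1, so the windows of the genes that rose differed in GC content. A motif match is a description of letters, and these windows leave out other starts and the introns.

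The effectors parted ways. BAX, which forms pores in the outer mitochondrial membrane after moving there from the cytosol, rose, and BAK1, which encodes BAK, the effector resident in that membrane, fell. BAX (ENSG00000087088.20, chromosome 19, 48954815 to 48961798, plus strand) had 167, 161 and 169 CPM in knockdown libraries and 130.2, 125 and 128 CPM in controls, with no overlap. The log2 fold change of BAX was 0.38 (SE 0.03, adjusted p = 4.6e-17 from edgeR), a fold of 1.30. BAK1 (ENSG00000030110.13, chromosome 6, 33572547 to 33580293, minus strand) had 13.9, 14.2 and 15.2 CPM in knockdown libraries and 19.05, 18.5 and 19.7 CPM in controls. All knockdown libraries of BAK1 were below all controls (log2 fold change -0.40, SE 0.06, adjusted p = 3.1e-07 from edgeR), and its level was 0.758 of the control level, with a change of -0.25 on the log2(FPKM + 1) scale. A processed pseudogene of BAK1, BAK1P1, held only 31 counts over the 6 libraries.

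Changes of the guardians were small and opposite. MCL1, a short-lived guardian whose transcript is also unstable, had 175, 172 and 171 CPM in knockdown libraries and 191, 190.3 and 192 CPM in controls, which do not overlap. MCL1 fell by 0.15 on the log2 scale (SE 0.02, adjusted p = 6.2e-07 from edgeR). That call ended with limma-trend on the deposited FPKM, where the log2 fold change was -0.04 with adjusted p = 0.267 on the log2(FPKM + 1) scale and 0.272 on the log2(FPKM + 0.1) scale, and total-count scaling gave -0.07. BCL2L1, which encodes BCL-xL, had 166, 168 and 175 CPM in knockdown libraries and 160, 162 and 163 CPM in controls. Its log2 fold change was 0.07 (SE 0.02, adjusted p = 0.0149 from edgeR), with the highest library, knockdown replicate 3, standing above the other knockdown libraries. The call of BCL2L1 ended without knockdown replicate 3 (0.05, adjusted p = 0.173), without control replicate 1 (0.06, adjusted p = 0.0653) and with DESeq2 (0.07, adjusted p = 0.051), and its change was 0.18 on both FPKM scales and 0.15 with total-count scaling. BCL2L1 overlaps the antisense gene ABALON, which had 770 counts over the 6 libraries and was not called (log2 fold change -0.16, SE 0.14).

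**Figure D2:**
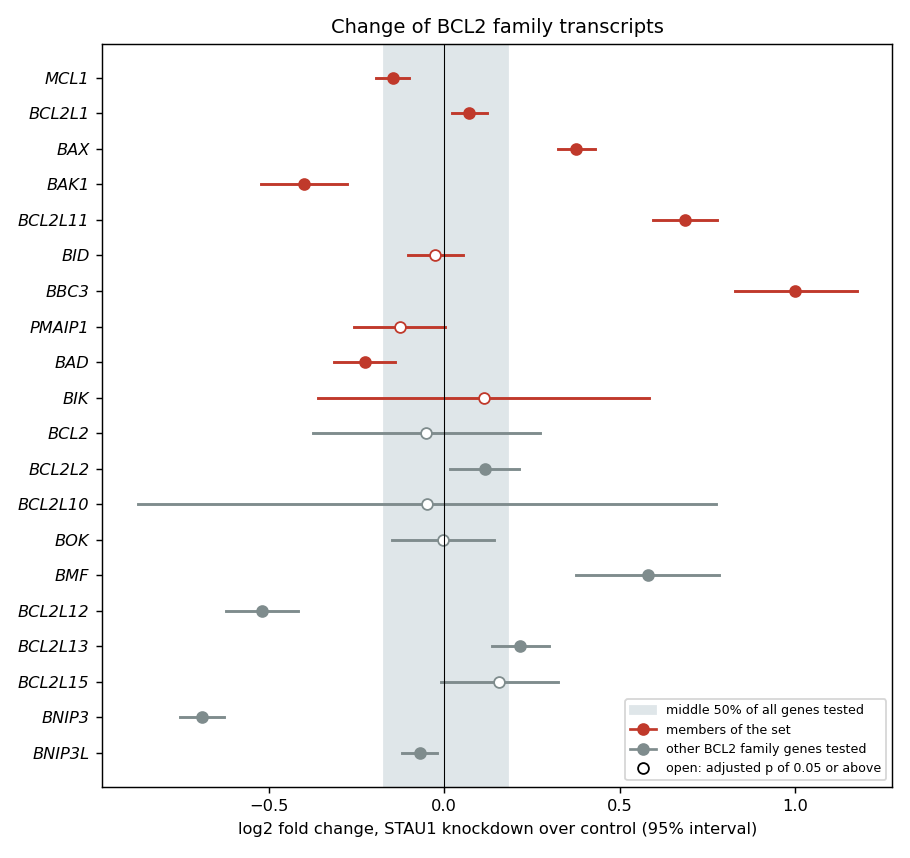
Log2 fold change, STAU1 knockdown over control, with its 95% interval for the 10 members in red and the 10 other BCL2 family genes that were tested in grey; open circles mark an adjusted p of 0.05 or above and the shaded band is the middle 50% of all genes tested, -0.17 to 0.18. BBC3, BCL2L11 and BAX lie right of the band with their intervals, BAK1 left of it, and the estimates of MCL1 and BCL2L1 inside it.

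Levels can be compared between genes only per length, for which the authors' FPKM values (fragment counts scaled to transcript length and library size) were used. BAX was the most abundant member, at 56.4 ± 2.39 FPKM in knockdown and 40.3 ± 0.920 FPKM in control libraries (SD, n = 3 each). BCL2L1 followed with 35.6 ± 1.76 and 31.4 ± 0.355 FPKM in knockdown and control libraries, then MCL1 with 24.4 ± 0.359 and 25.1 ± 0.232 FPKM and BAD with 16.6 ± 0.704 and 18.01 ± 0.480 FPKM. BID stood at 8.85 ± 0.243 FPKM in knockdown and 8.35 ± 0.208 FPKM in control libraries. From BAX down to BID, no neighbouring ranges overlapped in either group. Below BID the order differed between groups. In knockdown libraries BCL2L11 (5.55 ± 0.379 FPKM) overlapped both BAK1 (5.76 ± 0.401 FPKM) and PMAIP1 (5.28 ± 0.112 FPKM) and could not be ordered against either, while every library of BAK1 lay above those of PMAIP1. Controls kept these genes apart, with BAK1 at 7.04 ± 0.245 FPKM, PMAIP1 at 5.35 ± 0.0586 FPKM and BCL2L11 at 3.20 ± 0.106 FPKM. BBC3, at 3.05 ± 0.193 FPKM in knockdown and 1.41 ± 0.0551 FPKM in control libraries, and BIK, at 1.08 ± 0.224 and 0.927 ± 0.0666 FPKM in knockdown and control libraries, were the scarcest.

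**Figure D3:**
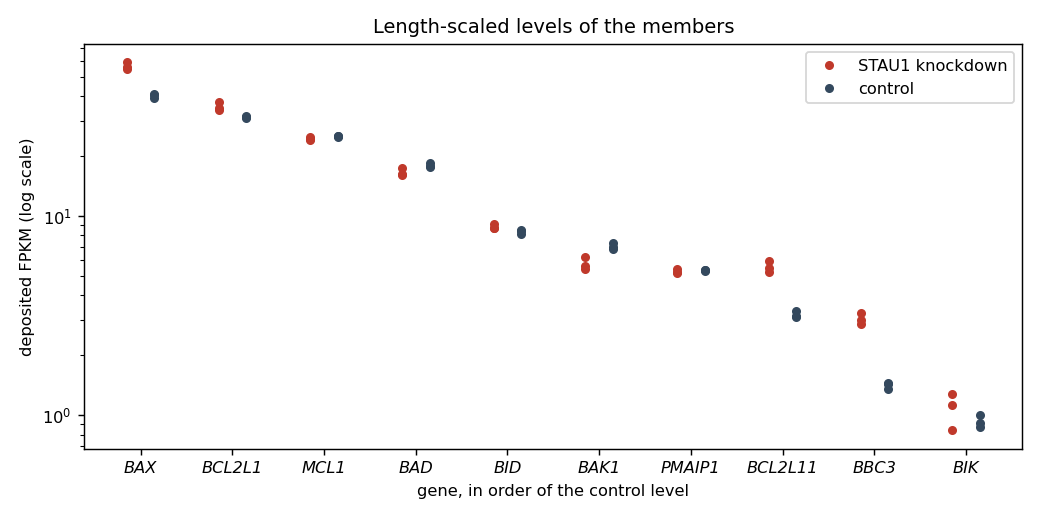
Deposited FPKM of each member on a log axis, with 3 STAU1 knockdown libraries (red, left) and 3 control libraries (dark blue, right) per gene, in order of the control level. BCL2L11 lies between 5.23 and 5.97 FPKM in knockdown libraries, overlapping BAK1 and PMAIP1, and between 3.12 and 3.32 FPKM in controls, below both.

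Ratios within a library do not depend on library scaling, and a few were computed after the single genes had been seen, so they are given with no test. The ratio of BAX to BAK1 FPKM was 10.2, 9.70 and 9.52 in knockdown libraries and 5.84, 5.78 and 5.55 in controls. BAX relative to BCL2L1 stood at 1.63, 1.55 and 1.57 in knockdown libraries and 1.32, 1.25 and 1.27 in controls. The ratio of BCL2L11 to MCL1 was 0.227 ± 0.0126 in knockdown and 0.128 ± 0.0040 in control libraries (SD, n = 3 each), and that of BBC3 to MCL1 was 0.125 ± 0.0061 and 0.0564 ± 0.0026 in knockdown and control libraries. None of these ratios overlapped between groups. Both effectors together summed to 62.2 ± 2.75 FPKM in knockdown and 47.3 ± 1.09 FPKM in control libraries, of which BAX made up most. Both guardians together summed to 60.04 ± 2.09 FPKM in knockdown and 56.5 ± 0.517 FPKM in control libraries, so the effectors over the guardians were 1.04 ± 0.0183 and 0.838 ± 0.0180 in knockdown and control libraries. All 6 BH3-only genes summed to 40.4 ± 1.65 and 37.2 ± 0.748 FPKM in knockdown and control libraries, and over the guardians that was 0.673 ± 0.0085 and 0.660 ± 0.0170, with overlapping groups. BAD, the most abundant BH3-only gene, fell while the scarcer BBC3 and BCL2L11 rose. These sums weigh transcripts by abundance and say nothing of protein levels. Unlike the ratios, the sums depend on library scaling. The FPKM scales of limma-trend moved the median log2 fold change of all genes by 0.05 and 0.10. With TMM scaling MCL1 fell by 0.15 and BCL2L1 rose by 0.07 on the log2 scale. No rise of the guardian or BH3-only sums is therefore read from the FPKM values.

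GC content of the longest GENCODE 29 transcript was 69.7% for BBC3, 58.9% for BAX and 45.7% for BCL2L11, and the members that fell had 58.8% for BAK1, 66.3% for BAD and 45.1% for MCL1. Over all tested genes the median log2 fold change per bin of GC content (10 bins of equal size) ran from -0.05 to 0.03. The part of base composition in the members' changes was not tested. BBC3 (1838 nt) and BAD (1157 nt), with log2 fold changes of 1.00 and -0.23, were both in the bin of highest GC content, whose median was -0.05. The medians of their bins of transcript length were -0.04 and -0.06. The part of transcript length was not tested either.

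The rest of the family, 13 further genes that share BCL2 homology or the name, also split. Of 10 tested, 3 rose, 3 fell and 4 did not pass, where 44.2% of all genes tested were called. The median log2 fold change of these 10 was -0.03, while BCL2A1, HRK and BCL2L14 had too few counts to be tested. BMF, a BH3-only protein known to be held by dynein light chain on the cytoskeleton, had 6.65, 8.33 and 7.64 CPM in knockdown libraries and 5.19, 4.67 and 5.27 CPM in controls and rose by 0.58 on the log2 scale (SE 0.10, 0.34 on the log2(FPKM + 1) scale). BNIP3, a hypoxia-induced mitochondrial protein that also acts in mitophagy, fell by 0.69 on the log2 scale (SE 0.03), with 87.3, 89.4 and 89.8 CPM in knockdown libraries and 137, 152 and 141 CPM in controls. Its relative BNIP3L had a log2 fold change of -0.07 (SE 0.02) that was called, but was reversed on both FPKM scales (0.04) and with total-count scaling (0.0075), and lost its call with no filter on low counts and without knockdown replicate 1 or 3 or control replicate 2. BCL2L12 fell by 0.52 on the log2 scale (SE 0.05), and BCL2L13, a mitochondrial outer membrane protein, rose by 0.22 (SE 0.04). BCL2L2, which encodes the guardian BCL-w, had a log2 fold change of 0.12 (SE 0.05, adjusted p = 0.0487 from edgeR), a call that ended under 11 of 16 alternatives.

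BCL2, the guardian that gave the family its name, was scarce in these cells. It had 2.46, 2.07 and 2.93 CPM in knockdown libraries and 2.29, 2.71 and 2.76 CPM in controls, and was not called, with a 95% interval of its log2 fold change of -0.37 to 0.27. BOK, an effector that acts without the guardians' control, had 11.9 ± 0.339 CPM in knockdown and 11.9 ± 0.993 CPM in control libraries. BCL2L10 and BCL2L15 were not called either, with log2 fold changes of -0.05 (SE 0.41) and 0.16 (SE 0.08). BCL2L15 gained a call in 1 of 16 alternatives, total-count scaling (0.23, adjusted p = 0.0173 from edgeR).

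Downstream of the mitochondria, 4 of 15 apoptosome and caspase genes rose, 3 fell and 8 did not pass (median log2 fold change -0.02). The share called over all genes tested was 44.2%. CASP6, an executioner caspase, rose by 0.37 (SE 0.06), CASP8, the initiator that cleaves BID, by 0.24 (SE 0.04), and CYCS, which encodes the cytochrome c that BAX and BAK release, by 0.20 (SE 0.02). The apoptosome core did not pass: APAF1 had -0.02 (SE 0.06) and CASP9 -0.0063 (SE 0.07). The 3 falls, AIFM1, ENDOG and HTRA2, were small, and only 1 gene of the list was called lower with DESeq2, limma-voom, total-count scaling or no filter and without control replicate 1 or 2, and 0 on the FPKM scales.

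Inhibitors of apoptosis were called in 7 of 8 cases, where 44.2% of all genes tested were called. Their calls were 4 higher and 3 lower, and the list's median was 0.05. BIRC3, the NF-kB-induced ubiquitin ligase cIAP2, fell by 0.44 on the log2 scale (SE 0.06; -0.23 on the log2(FPKM + 1) scale), while BIRC6, a giant ubiquitin ligase, and AVEN rose by 0.22 each (SE 0.04 and 0.05). BIRC5, which encodes survivin, a mitotic protein as well as an inhibitor of apoptosis, fell by 0.13 (SE 0.03), but that call ended with total-count scaling and on both FPKM scales. With DESeq2 and without control replicate 3, the count of higher genes of this list was 2, and 1 gene was lower with total-count scaling or on the FPKM scales.

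Of 12 death receptor pathway genes 4 rose, 3 fell and 5 did not pass (median 0.05), where 44.2% of all genes tested were called. The lower genes of this list numbered 1 on the FPKM scales. FAS, the receptor of Fas ligand and a known p53 target, had 18.8, 18.3 and 19.3 CPM in knockdown libraries and 11.8, 12.2 and 12.4 CPM in controls, a log2 fold change of 0.64 (SE 0.06). TNFRSF10D, a decoy receptor of TRAIL, rose by 0.33 (SE 0.04). TRAF2, an adaptor of TNF receptors, fell by 0.28 (SE 0.06), and TNFRSF1A, the main TNF receptor, by 0.15 (SE 0.02), though both changes were nearer 0 on the log2(FPKM + 1) scale, at -0.14 for TRAF2 and -0.04 for TNFRSF1A, where TNFRSF1A was no longer called.

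Among 15 genes listed as mitochondrial membrane partners, not all of them of the outer membrane, 8 were lower, 1 was higher and 6 did not pass. Their median was -0.10, and 22% of all genes tested were lower and 22.2% higher. VDAC1, the main outer membrane channel, fell by 0.20 (SE 0.02), VDAC2, a channel that binds BAK and BAX, by 0.17 (SE 0.02), PPIF, the matrix cyclophilin of the permeability transition, by 0.19 (SE 0.03), and DNM1L, the fission GTPase, by 0.16 (SE 0.03). The count of higher genes was 0 with DESeq2, without knockdown replicate 1 or 3 and without control replicate 1 or 2, and 2 with total-count scaling and on the FPKM scales. Lower calls depended on scaling: 4 were lower with total-count scaling and 1 with limma-trend on either FPKM scale, where VDAC2, PPIF and DNM1L lost their calls and VDAC1 had -0.09. The mitochondrially encoded share of counts, given above, moved in the same direction, and its part here was not tested.

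**Figure D4:**
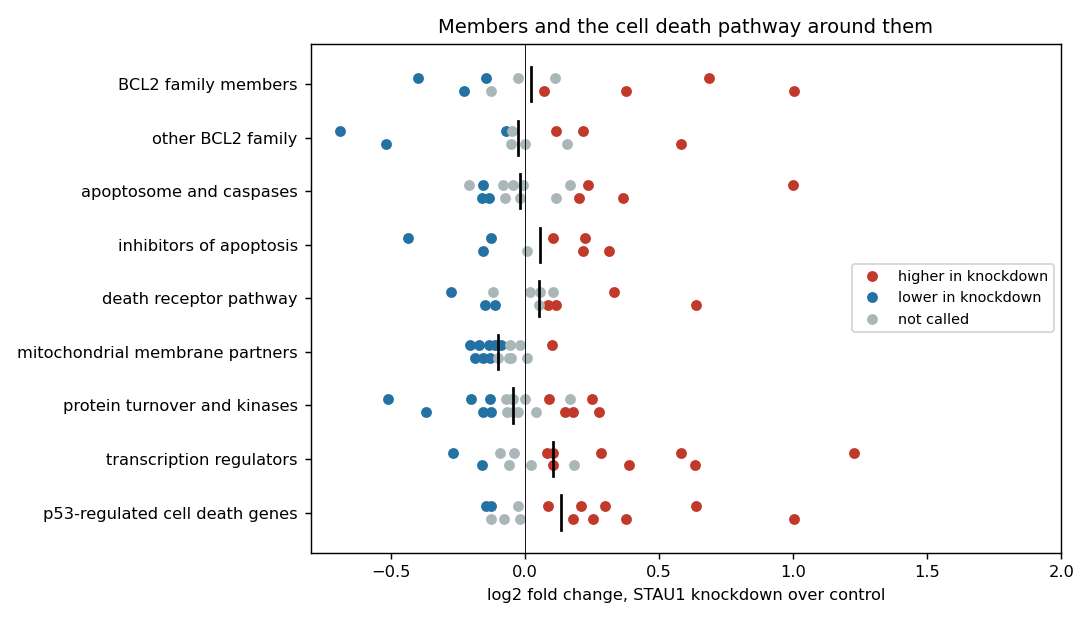
Log2 fold change, STAU1 knockdown over control, of each tested gene in the BCL2 family set and in 8 lists of cell death genes, coloured by call, with a black bar at each list's median. The list medians lie between -0.10 and 0.13, and single genes such as BBC3 and TP63 reach 1.00 to 1.23.

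Proteins that modify or degrade BCL2 family members formed a list of 22, of which 20 were tested. Of those, 5 were higher, 6 lower and 9 not called (median -0.05), where 44.2% of all genes tested were called. On the FPKM scales 2 genes of this list were lower. AKT1, the kinase known to phosphorylate BAD, rose by 0.28 (SE 0.03), and USP9X, which removes ubiquitin from MCL1, by 0.15 (SE 0.02). PIM2, a further kinase that phosphorylates BAD, fell by 0.51 (SE 0.07; -0.33 on the log2(FPKM + 1) scale), and CDK1, the mitotic kinase that phosphorylates several family members, by 0.37 (SE 0.03). HUWE1, a ubiquitin ligase of MCL1, had -0.03 (SE 0.02) and was not called.

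Among 16 transcription regulators of the members 15 were tested, with a median of 0.10. Of those, 8 were higher, 2 lower and 5 not called, where 22.2% of all genes tested were higher and 22% lower. Without knockdown replicate 3, and likewise without control replicate 3, the higher genes of this list numbered 5, and 1 gene was lower on the FPKM scales. TP63, an epithelial transcription factor, had the largest change, with 12.9, 13.8 and 13.4 CPM in knockdown libraries and 5.09, 6.27 and 5.75 CPM in controls (log2 fold change 1.23, SE 0.08; 0.67 on the log2(FPKM + 1) scale). TRIB3, a pseudokinase of the stress response, rose by 0.58 (SE 0.03), and STAT3, known to drive BCL2L1 and MCL1 transcription, by 0.39 (SE 0.03). FOXO3, which is known to drive BCL2L11 and BBC3, had 21.07, 19.5 and 20.8 CPM in knockdown libraries and 16.02, 18.3 and 16.2 CPM in controls, a rise of 0.28 (SE 0.06). ATF4, the effector of the integrated stress response, fell by 0.27 (SE 0.02; -0.16 on either FPKM scale), and its partner DDIT3, known to drive BBC3 and BCL2L11 under endoplasmic reticulum stress, had 0.02 (SE 0.08) and was not called.

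The p53-regulated cell death list holds BBC3, BAX, PMAIP1 and BID from the set itself. It had 8 of 14 tested genes higher, 2 lower and 4 not called (median 0.13), where 22.2% of all genes were higher and 22% lower. Nothing is read from that list's count beyond this. Besides BBC3, BAX and FAS, the rises were PERP, a desmosomal protein, by 0.21 (SE 0.02), TP53I3 by 0.25 (SE 0.03), ZMAT3, an RNA-binding protein, by 0.30 (SE 0.05), AEN by 0.18 (SE 0.04) and TNFRSF10B by 0.09 (SE 0.02). SIVA1 and AIFM2 fell by 0.14 (SE 0.04) and 0.13 (SE 0.04), and 0 genes of the list were lower with total-count scaling or on the FPKM scales. PMAIP1, BID and APAF1, also in this list, were not called.

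Processing left most of these member results in place. The calls of BBC3, BCL2L11, BAX, BAK1 and BAD held under all 16 alternatives, with log2 fold changes of 0.75 to 1.08 for BBC3, 0.64 to 0.78 for BCL2L11, 0.36 to 0.49 for BAX, -0.44 to -0.25 for BAK1 and -0.25 to -0.11 for BAD.

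**Figure D5:**
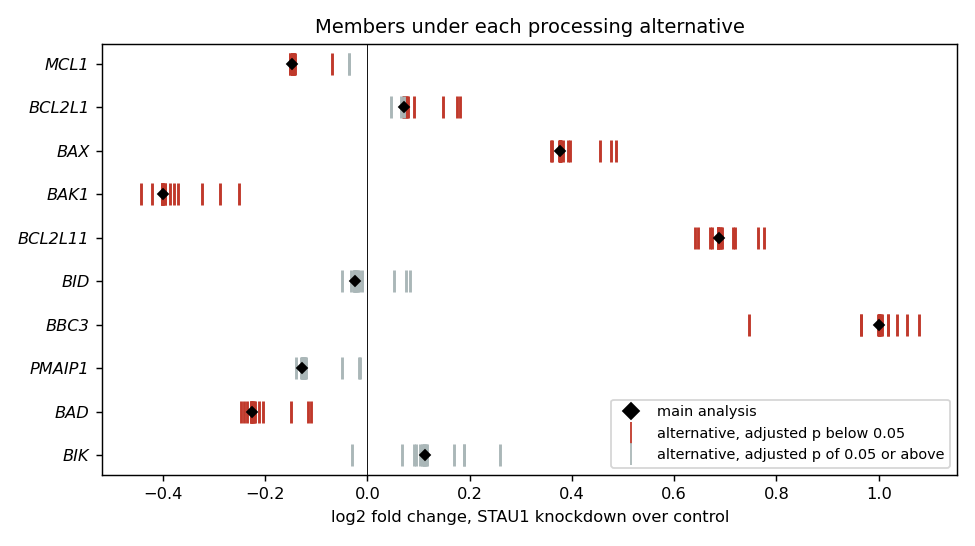
Log2 fold change, STAU1 knockdown over control, of each member in the main analysis (black diamond) and under each of 16 processing alternatives (ticks, red where the adjusted p is below 0.05). BBC3, BCL2L11 and BAX stay right of 0 and BAK1 and BAD left of it in every alternative, and BID and BIK have ticks on both sides.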

How the data were processed

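The authors deposited a table of raw read counts per gene, 1 column per library, and a table of FPKM values rounded to 2 decimals. HISAT2, DESeq2 and the build GRCh38 are named in the submitters' processing notes; per the labels' protocols, mRNA captured on beads gave directional libraries read as paired ends of 150 nt. The counting tool, annotation release and strand setting are in no source used here. Columns were matched to libraries by their titles. Genes passing filterByExpr (minimum count 10) were tested with edgeR 4.0.16 (limma 3.58.1, R 4.3.3): TMM factors, robust quasi-likelihood test, Benjamini-Hochberg adjustment over 17089 genes. Log2 fold changes are knockdown over control, and each SE was its absolute value divided by the root of F. The common dispersion corresponded to a coefficient of variation of 2.61%. Alternatives were other scalings and filters, DESeq2 1.42.0, limma-voom, limma-trend on log2 FPKM, the replicate block and each library left out. The script was tested on simulated counts. No 2 libraries of a group agreed within sampling noise (chi-square per degree of freedom 1.78 to 2.88). GENCODE 29 (98.8% of tested genes matched) gave loci, and RefSeq promoter windows were found for 8 of 10 members. The members and lists were chosen with earlier results of these data known. Named genes were the members, STAU1, STAU2, the other tested BCL2 family genes and the 4 genes of smallest adjusted p in each other list; those named besides were chosen after their values were seen. A few list genes are not reported here.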

Additional observations from a re-analysis of the deposited data

How the results depend on the processing

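Over all genes 3801 were higher and 3759 lower, which is 50.3% higher among calls; the lower genes numbered 2407 with total-count scaling, 1546 on the log2(FPKM + 1) scale and 1539 on the log2(FPKM + 0.1) scale, where the higher share was 69.5%, 77.2% and 77.3%. The median of all genes moved by 0.08, 0.05 and 0.10 under these settings. The members numbered 3 to 4 higher and 2 to 3 lower under all 16 alternatives. Leaving out each library in turn gave 3386 to 3570 genes higher and 3370 to 3631 lower. The cause of these shifts was not tested. Uncalled genes changed sign: BID had 0.052 with total-count scaling, 0.076 on the log2(FPKM + 1) scale and 0.083 on the log2(FPKM + 0.1) scale. BCL2 had 0.026, 0.0079 and 0.029 and BOK 0.075, 0.088 and 0.109 under the same scalings, BOK 0.00054 with no filter and 0.0026 with the CPM filter, and BCL2L10 0.027 with total-count scaling and 0.0091 on the log2(FPKM + 1) scale. The called BNIP3L had 0.0075, 0.039 and 0.040 under these scalings. With each library left out in turn, values ran from -0.031 to 0.26 for BIK, -0.195 to 0.065 for BCL2, -0.27 to 0.28 for BCL2L10 and -0.044 to 0.0697 for BOK. BCL2L10 could not be fitted with the CPM filter, which removed it. The labels do not say that replicate numbers pair libraries. Same-numbered libraries deviated together with correlations of 0.07, 0.04 and 0.15. Each was the highest of its knockdown library, but control 2 had a higher value with knockdown 1 (0.05). With the replicate block 3821 genes were higher and 3844 lower, 4 members higher and 3 lower, and STAU1 had -2.97. Among the members, the other BCL2 family genes and the 4 leading genes of each list, the block ended the call of BCL2L2 (adjusted p = 0.0563 from edgeR) and no other. Genes named besides these were not followed singly across the alternatives. With 29 to 44 counts per library, BIK is limited by depth.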
